A study of Mus musculus with 30 samples.

Results

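Lung RNA of young mice labelled Zmpste24 deficient was compared with lung RNA of young wild type (WT) mice, all of which had received saline. The comparison rests on 6 of the 30 arrays of the series, those whose titles name the young saline groups of the second array set: 3 labelled Zmpste24 -/- and 3 labelled zmpste24 +/+, all c57BL/6, 7 weeks old, and killed 21 days after oropharyngeal administration of saline. The labelled genotype is a deletion in the whole animal and not in the lung alone. In 2 of the 3 deficient arrays the level of Zmpste24 lay near WT, above that of the deficient arrays of the other groups. The series holds 10 groups of 3 arrays by genotype, age and instillation (saline or bleomycin), hybridized at 2 moments (set 1 and set 2, 15 arrays each). Set 1 holds a further 3 young Zmpste24 deficient saline arrays (7 weeks) and 3 WT saline arrays that are titled young but carry an age label of 16 weeks. The question was which genes differ in the young lung at baseline, and which of those differences belong to lung tissue rather than to tissue attached to it.

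Lamin A, a filament protein that lines the inner nuclear membrane, is made as a farnesylated precursor, prelamin A, and the protease Zmpste24 trims off the lipid-bearing tail. Where the enzyme is missing, the lipid-bearing form stays at the nuclear rim. Mice without the enzyme grow normally at first and then develop wasting, bone fractures and other features of early aging. The lung itself is built from alveolar epithelium, capillaries, fibroblasts that lay down elastin and collagen, airways lined by ciliated and club cells, and resident immune cells, each with transcripts by which it can be followed in whole-tissue RNA. Levels below are the deposited log2 values of one probe set per gene, given for replicates 1, 2 and 3 in that order. A difference is the mean of the arrays labelled deficient minus the mean of the WT arrays, on the log2 scale, ± its standard error in limma. A gene is called when its p-value, adjusted over all 22180 genes tested, is under 0.05.

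Zmpste24 itself was at 6.09, 7.60 and 7.93 in the arrays labelled deficient and at 8.53, 7.93 and 8.46 in WT. Replicate 1 thus lay well below WT, whereas replicates 2 and 3 lay near or at the lowest WT array, and the 15 WT arrays of the series spanned 7.93 to 8.68. The difference was -1.10 ± 0.40, adjusted p = 0.19, so the deleted gene was not called. In the set 1 arrays labelled deficient it was at 5.62, 7.55 and 5.29, again with replicate 2 close to WT. In the other groups the 9 arrays labelled deficient ran from 5.69 to 6.56, below all 15 WT arrays, so the probe set does follow the deletion. The 3 young arrays near WT all lay above those 9. Set 2 replicate 3 was about at the lowest WT level, and replicate 2 of either set lay between both ranges. The reason was not tested. Xist, the RNA that coats the inactive X, was at 4.18, 9.64 and 10.08 against 10.61, 4.45 and 4.56 in WT, so both groups held arrays of either sex. Eif2s3y, a Y-linked gene, was at 8.27, 5.66 and 3.96 in the same arrays, and deficient replicate 2 carried high Xist together with a Y-linked level between those of the other arrays. Deficient replicates 2 and 3 were the most alike of all 66 pairs of young saline arrays (r = 0.994 across genes, where the lowest pair had r = 0.972). Set 1 deficient replicate 3 resembled set 2 deficient replicate 1 (r = 0.991), and set 1 replicate 2 resembled set 2 replicate 3 (r = 0.991). The WT arrays paired across the sets in the same way, replicate 1 of set 1 with replicate 2 of set 2 (r = 0.992) and both replicates 3 (r = 0.993). The labels do not say if RNA of the same lung was used in both sets, so set 1 is not treated as independent of set 2.

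Of the 22180 genes, 639 were called (2.88%), 295 higher (1.33%) and 344 lower (1.55%) in the arrays labelled deficient, and 193 of them differed by more than 1 (130 higher and 63 lower). The median difference over all genes was 0.04. Leaving out WT replicate 2 reduced the calls to 294, leaving out deficient replicate 3 to 332 and deficient replicate 2 to 349. With both arrays whose Zmpste24 was near WT left out, deficient replicate 1 alone differed from WT in 73 genes (54 higher and 19 lower), a fit in which that array is assumed to vary like the other groups. The 3 young arrays of either set with low Zmpste24 (set 1 replicates 1 and 3 and set 2 replicate 1) against all 6 young WT arrays, with set as a term, gave 655 calls (2.95%, with 1.09% higher and 1.86% lower). That comparison shares deficient replicate 1 and all 3 WT arrays with the one within set 2, so its values are given side by side and are no independent check. Its other WT arrays carry the age label of 16 weeks. It also called higher 14 of 24 genes of squamous epithelium and 16 of 24 of skeletal muscle, tissues described below, so it is not free of attached tissue. The comparison within set 1 gave 377 calls (1.7%, with 0.649% higher and 1.05% lower). No gene's difference was called as unequal between the sets (0 of 22180 in limma, 287 at an unadjusted p under 0.05). Lungs may be shared between the sets, and a missed threshold does not show equality. The test therefore cannot tell if separate lungs would give the same differences.

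The highest genes of the comparison are not genes of lung parenchyma. Krt4, a keratin of the esophageal lining, was at 11.81, 11.68 and 11.40 in the arrays labelled deficient and 4.85, 5.13 and 4.91 in WT (6.67 ± 0.75, adjusted p = 1.4e-05). Krt13, its partner keratin, was at 9.65, 9.77 and 10.06 against 5.38, 5.45 and 5.48 (4.39 ± 0.60, adjusted p = 8.2e-05). Sprr3, a protein of the cornified envelope, was at 8.05, 7.83 and 7.61 against 3.65, 4.07 and 3.58 (4.06 ± 0.48, adjusted p = 1.5e-05). In each of these 3 genes every array labelled deficient lay far above every WT array. Of the 24 measured genes of squamous epithelium, 15 were called higher, against 1.33% of all genes, and none lower. The median difference was 1.298 against 0.04 over all genes. The mean level of the list ran from 7.34 to 7.46 in the arrays labelled deficient and from 5.41 to 5.46 in WT. It stayed at or below 5.68 in the 18 arrays of the other groups, so squamous RNA was seen only among the young arrays labelled deficient. With any 1 array left out, 14 or 15 members stayed called.

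Skeletal muscle genes formed a second block of the same kind. Acta1, the actin of skeletal muscle fibers, was at 10.60, 10.75 and 10.55 against 6.03, 6.19 and 6.21 in WT (4.49 ± 0.57, adjusted p = 2.9e-05). Myh1, a fast myosin heavy chain, was at 8.77, 7.98 and 8.49 against 4.80, 4.50 and 4.51 (3.81 ± 0.59, adjusted p = 3.3e-04). Neb, which sets the length of the thin filament, was at 8.16, 8.14 and 8.13 against 5.50, 5.55 and 5.64 (2.58 ± 0.30, adjusted p = 1.5e-05). Again the groups were far apart in all 3. Of 24 measured members 18 were called higher, against 1.33% of all genes (median difference 1.80), and 16 or 17 with any 1 array left out. The list mean was 7.24 to 7.26 against 5.60 to 5.64. None of the 12 genes of heart muscle was called (median 0.01), and Tnnt2, cardiac troponin T, was at 10.08, 9.89 and 9.79 against 9.73, 10.70 and 9.70.

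Brown fat and liver transcripts were present in only some of the arrays. Ucp1, the uncoupling protein of brown fat, was at 5.46, 8.72 and 9.13 against 5.40, 5.31 and 5.17 in WT, so replicates 2 and 3 were high and replicate 1 was at the WT level. The call (2.48 ± 0.63, adjusted p = 0.025) was lost without deficient replicates 2 (2.00) or 3 (1.80) or WT replicates 1 (2.53), 2 (2.49) or 3 (2.42). Alb, serum albumin, followed the same arrays at 5.56, 9.89 and 9.95 against 5.37, 5.35 and 5.50 (3.06 ± 0.77, adjusted p = 0.023), and its call was lost without deficient replicates 2 (2.35) or 3 (2.32) or WT replicates 1 (3.04), 2 (3.03) or 3 (3.11). These are the arrays whose Zmpste24 was near WT. Slc36a2, an amino acid transporter carried on the brown fat list, was higher in all 3 arrays, at 8.92, 9.12 and 9.16 against 8.30, 7.78 and 8.34 (0.92 ± 0.20, adjusted p = 0.0059), and lost its call only without WT replicate 2 (0.74). Of the brown fat list 2 of 12 genes were called higher and of the liver list 1 of 10, against 1.33% of all genes. The list means were also highest in deficient replicates 2 and 3. Brown fat was at 6.23, 6.80 and 6.81 against 6.19, 6.17 and 6.13 in WT, and liver at 5.27, 6.56 and 6.55 against 5.35, 5.32 and 5.41. Fat of both kinds was at 7.16, 7.58 and 7.51 against 6.98, 7.03 and 7.01. No gene was called among 15 of fat of both kinds, 15 of cartilage, 13 of thymus, 8 of mesothelium and 7 of peripheral nerve. WT replicate 2 had less mesothelial RNA than the other arrays (list mean 6.70, where the other 5 arrays ran from 8.08 to 8.26) and the highest cardiac list mean (8.28).

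**Figure D1:**
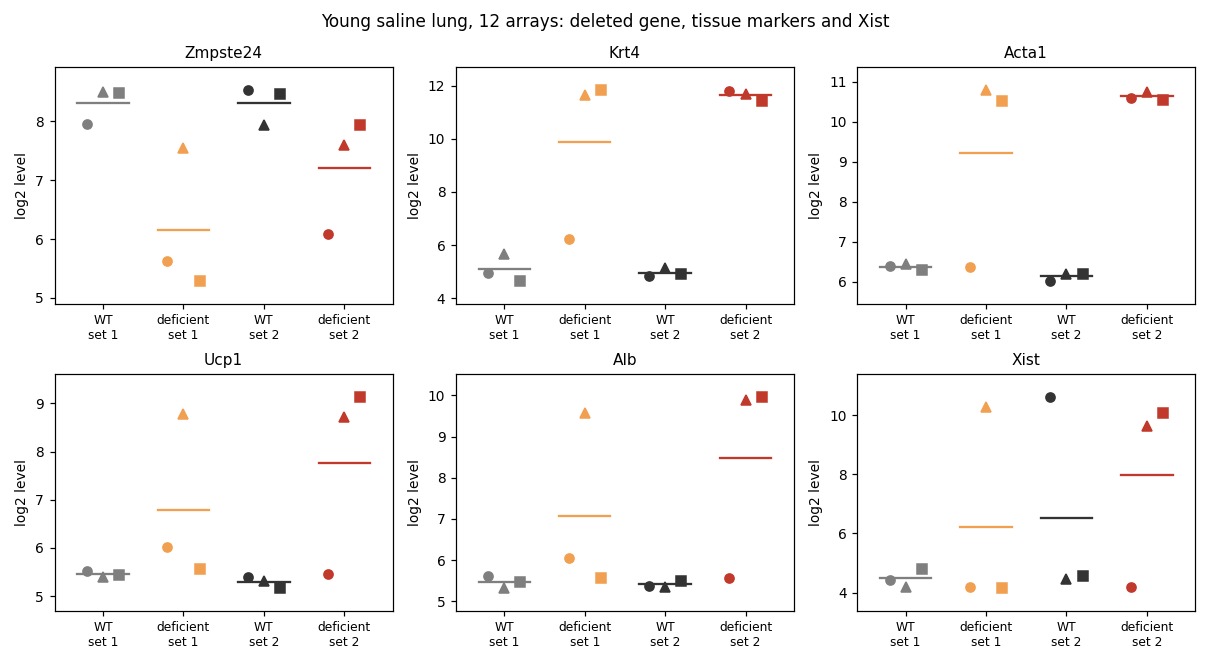
Log2 level of Zmpste24, of markers of squamous epithelium (Krt4), skeletal muscle (Acta1), brown fat (Ucp1) and liver (Alb), and of Xist in the 12 young saline arrays. Circles, triangles and squares are replicates 1, 2 and 3, bars are group means, and each panel has its own axis. Set 2 deficient replicates 2 and 3 are high in Ucp1 and Alb and near WT in Zmpste24, while set 1 deficient replicate 1 is low in Zmpste24 and far below the other deficient arrays in Krt4 and Acta1.

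One array with little attached tissue allowed a comparison. Set 1 deficient replicate 1 had Zmpste24 at 5.62 and a squamous list mean of 5.50, where the WT arrays of its set ran from 5.28 to 5.45. Its muscle list mean was 5.56 (5.51 to 5.76 in those WT arrays) and its brown fat list mean 6.22 (6.09 to 6.18). It was not wholly free of attached tissue, since Krt4 at 6.22, Ucp1 at 6.01 and Alb at 6.05 still lay above the 6 young WT arrays, though far below the other arrays labelled deficient that carried them. Over all genes this array lay above all 6 young WT arrays in 19.2% and below all 6 in 22.1%. Among the 36 higher calls that belong to an attached-tissue list it lay above all 6 in 15 (41.7%), among them in 15 and below in 6. Those above included 7 of the 15 squamous calls and 5 of the 18 muscle calls, so some attached-tissue RNA remained. Its median difference from the set 1 WT mean over the 36 was 0.08 where set 2 gave 1.99. Of the 259 higher calls outside these lists it lay above all 6 WT arrays in 164 (63.3%), among them in 78, and below in 17. Of the 344 lower calls, none of which is on an attached-tissue list, it lay below all 6 in 293 (85.2%), and its median difference was -0.52 where set 2 gave -0.75. It is a single array against WT mice with another age label, so these counts are a description. The 6 WT arrays also include those of set 2, on which the calls were made, and this favors a place beyond all 6. The shares over all genes, which were not chosen in this way, are therefore no matched measure. The same holds for such counts of called genes below.

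Higher genes outside the lists also included genes of squamous tissue. Lor (loricrin), at 8.39, 7.85 and 8.29 against 5.50, 5.51 and 5.60 (2.65 ± 0.40, adjusted p = 2.6e-04), Mt4, a metallothionein of stratified epithelia (2.47 ± 0.40, adjusted p = 4.9e-04), and Asprv1, a protease of the epidermis (2.43 ± 0.36, adjusted p = 2.3e-04), were among the 12 highest genes named outside the lists. In the set 1 array with little squamous RNA they were at 5.68, 5.22 and 6.09, close to WT, where Asprv1 reached 5.73 and Lor 5.60 in set 2. Alox12b, Serpinb5, Serpinb12, Lce3f, Lypd5 and Defb4, other epidermal and epithelial genes, filled most of the same ranks with differences of 1.84 to 2.10. Set 1 replicate 1 lay above all 6 WT arrays in 5 of these 9 epithelial genes and among them in 4. Eln, Aspn and Phex filled the remaining ranks, with set 1 replicate 1 at 10.41, 8.999 and 6.88. A fit that carried the mean levels of the squamous, muscle and brown fat lists as covariates called only 2 genes, AF357425 and Stfa2l1. In that fit the median standard error rose from 0.17 to 0.29, and the 5 arrays of the series with squamous RNA were all labelled young deficient, so genotype and attached tissue can hardly be told apart there.

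**Figure D2:**
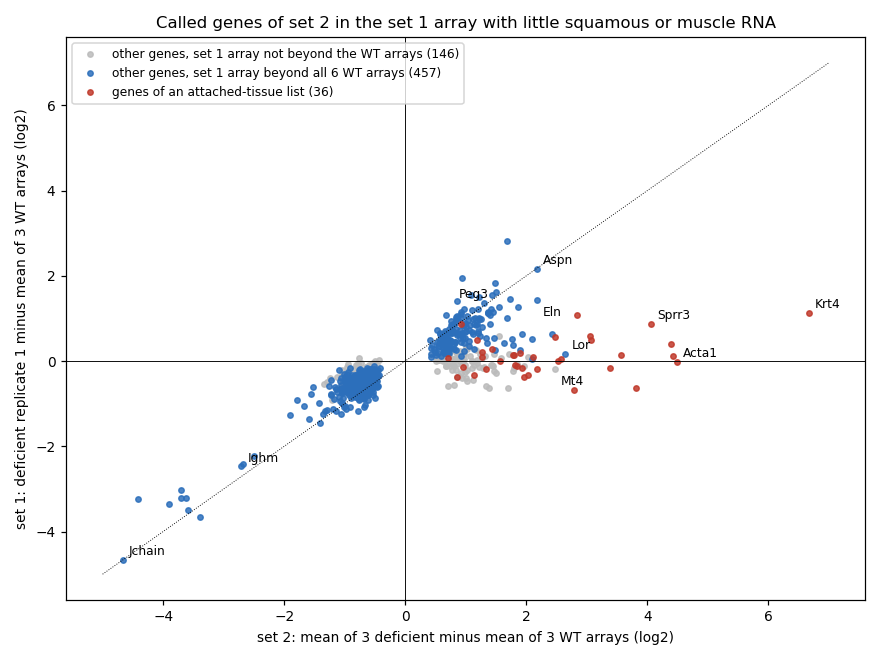
Each point is 1 of the 639 called genes: the set 2 difference (horizontal) and the difference between set 1 deficient replicate 1 and the mean of the 3 set 1 WT arrays (vertical), both log2. The dotted line marks equal values. Genes of the attached-tissue lists (red) reach 6.67 in set 2 and scatter about 0 in the other array, whereas the immunoglobulin genes at lower left fall in both.

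The 37 lists of lung cells and of processes hold 599 list entries with a measured gene, and 19 of these lists had no call. Over all genes 1.33% were called higher and 1.55% lower, and all counts of called members below stand beside these shares. The lists with calls divided by direction almost without mixture, and interferon-induced genes alone held calls of both kinds. Among lists with 1 call, Slc4a1, the anion exchanger of red cells, was at 8.31, 7.26 and 7.09 against 6.18, 6.36 and 6.33 (1.26 ± 0.27, adjusted p = 0.0065, lost without deficient replicate 1 (0.88)) and Pln, the brake on the calcium pump of smooth and heart muscle, at 7.004, 6.51 and 6.65 against 7.36, 8.02 and 7.47 (-0.90 ± 0.23, adjusted p = 0.027, lost without deficient replicates 2 (-0.79) or 3 (-0.86) or WT replicate 2 (-0.70)). Pln went against the rest of its list, since 11 of the 12 smooth muscle genes had a difference above 0 (median 0.36). In 6 of the 12 the arrays were higher without overlap (12.6% over all genes), though none was called higher. In whole lung RNA, fewer cells of a type and less RNA per cell cannot be told apart. All 3 arrays labelled deficient carry RNA of attached tissue, and its part in the lower levels of lung genes was not tested in set 2. In set 1 deficient replicate 1, which holds little of it, the list means were 7.22 for ciliated cells, 8.56 for antigen presentation and 5.98 for immunoglobulin chains, all below the 6 young WT arrays (lowest 7.64, 9.03 and 6.68).

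**Figure D3:**
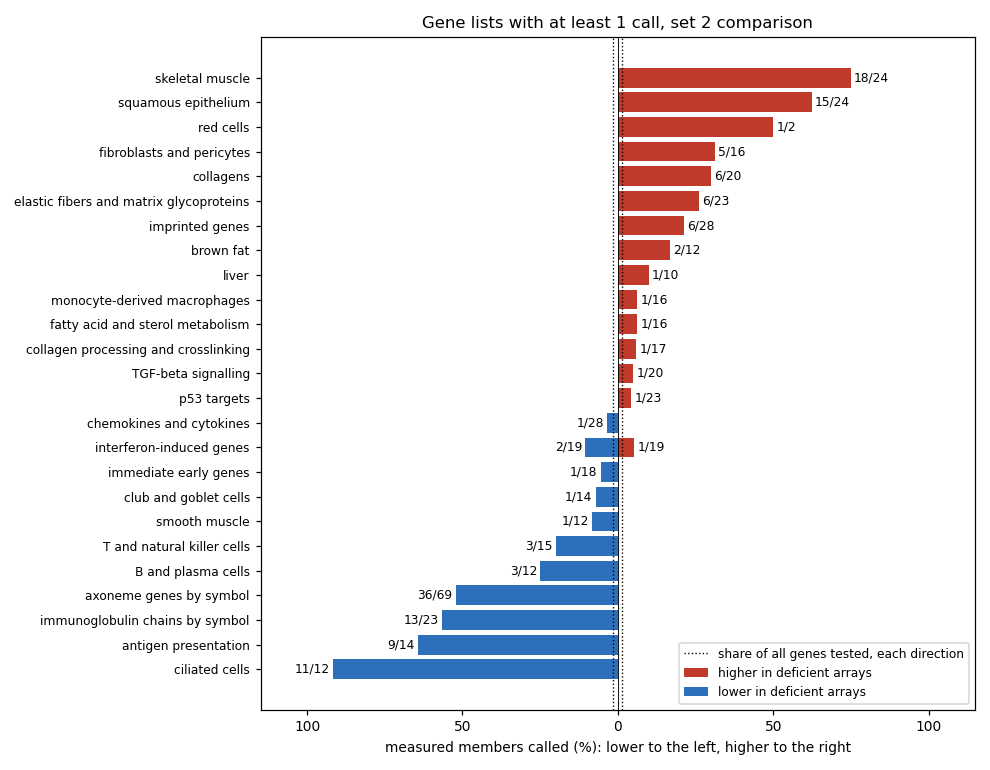
Share of the measured members of each gene list that was called higher (red, to the right) or lower (blue, to the left) in the arrays labelled deficient, with the counts beside the bars. Only lists with at least 1 call are drawn, and dotted lines mark the shares over all genes (1.33% and 1.55%). The lists of imprinted, immunoglobulin and axoneme genes were added after values were seen, and the other lists were chosen with earlier results of these data known.

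Ciliated cell genes were lower as a group. Ciliated cells move mucus along the airways by beating cilia whose core, the axoneme, is driven by dynein arms. Of 12 measured markers 11 were called lower, against 1.55% of all genes, with a median difference of -0.82. Leaving out 1 array left 6 to 11 of them, the lowest count without WT replicate 1, WT replicate 2 or deficient replicate 3. Foxj1, the transcription factor that switches on the motile cilium program, was at 8.27, 7.99 and 8.08 against 8.95, 9.07 and 8.65 (-0.78 ± 0.18, adjusted p = 0.013), and its call was lost without deficient replicates 2 (-0.71) or 3 (-0.76) or WT replicates 1 (-0.75) or 2 (-0.69). Tmem212, a ciliated cell marker, was at 8.06, 7.95 and 7.78 against 9.22, 9.30 and 8.71 (-1.14 ± 0.16, adjusted p = 1.6e-04). Dnah5, a heavy chain of the outer dynein arm, was at 7.62, 7.49 and 7.46 against 8.42, 8.80 and 8.38 (-1.01 ± 0.17, adjusted p = 6.8e-04). In these 3 genes all arrays labelled deficient lay below all WT arrays. Dynlrb2, a dynein light chain (-0.97 ± 0.15, adjusted p = 2.9e-04), Rsph1 of the radial spoke (-0.82 ± 0.14, adjusted p = 5.9e-04) and Dnah9, another outer arm heavy chain (-0.81 ± 0.14, adjusted p = 0.0011), moved alike and, like Dnah5 and Tmem212, kept their calls whichever array was left out. Sntn, a protein of the ciliary tip, was at 7.65, 6.97 and 7.26 against 8.75, 8.42 and 7.92 (-1.07 ± 0.24, adjusted p = 0.011) and lost its call without deficient replicates 2 (-0.91) or 3 (-1.05) or WT replicates 1 (-0.88) or 2 (-1.04).

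The same was seen in axoneme genes taken by symbol after their values were seen (Cfap, Dnah, Dnai, Dnal, Dnaaf, Drc, Tekt and Rsph genes). Of these, 36 of 69 were lower, against 1.55% of all genes, none was higher and the median was -0.53. Without WT replicate 2 the count was 18, without deficient replicate 3 it was 22, and without deficient replicate 2 or WT replicate 1 it was 24. Hydin, a protein of the central pair of microtubules, was chosen after its values were seen and is not among the 69, and the same holds for Spag17 and Lrrc6. Hydin was at 7.67, 7.65 and 7.54 against 8.44, 8.95 and 8.42 (-0.98 ± 0.18, adjusted p = 0.0014). Cfap43 was at 7.46, 7.22 and 7.14 against 8.67, 8.65 and 8.19 (-1.23 ± 0.20, adjusted p = 4.8e-04), Spag17, also of the central pair, differed by -1.005 ± 0.17, adjusted p = 5.4e-04, and Lrrc6, needed for the assembly of dynein arms, by -1.07 ± 0.14, adjusted p = 5.8e-05. In humans, loss of several of these genes, DNAH5, HYDIN, LRRC6 and RSPH1 among them, causes primary ciliary dyskinesia. In the 3 young arrays with low Zmpste24 against 6 WT arrays, 1.86% of all genes were lower. Among the ciliated markers 9 of the 12 were lower there, and among the axoneme genes 30 of the 69.

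Promoters of ciliary genes often carry the X-box, the site of the RFX factors that act beside Foxj1. For 10 of the 12 ciliated markers RefSeq (GRCm38.p6) gives a promoter, and 6 of the 10 hold the X-box core letters GTTGCC, on either strand, within 250 bases upstream of the start, as do 11.8% of the 16990 measured genes with a promoter. Of the 61 axoneme genes with a promoter 17 hold it. The full X-box palindrome was in 0 of the 10, in 3 of the 61 and in 0.494% of all. Among genes called lower, the core was in 6 of 9 ciliated markers and 9 of 31 axoneme genes. The palindrome was in 0 of those 9 and 0 of those 31. A match is a description and not a site. Shown are 100 bases upstream of 3 genes that were lower in all 3 arrays labelled deficient, with the core in capitals: chr8:116504915-116505014 (plus strand) for Dynlrb2, chr14:13670776-13670875 (plus strand) for Sntn and chr8:110266877-110266976 (plus strand) for Hydin.
Dynlrb2: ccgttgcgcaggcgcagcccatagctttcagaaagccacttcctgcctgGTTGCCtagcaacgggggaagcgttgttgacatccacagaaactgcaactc
Sntn: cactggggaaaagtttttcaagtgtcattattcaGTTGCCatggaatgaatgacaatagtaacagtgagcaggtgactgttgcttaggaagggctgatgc
Hydin: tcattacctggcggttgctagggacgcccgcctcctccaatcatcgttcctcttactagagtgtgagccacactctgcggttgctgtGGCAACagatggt

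Of 14 genes of club and goblet cells, the secretory cells of the airway, 1 was called, with a median difference of -0.32. In 12 of the 14 the difference was below 0, and in 4 the arrays were lower without overlap (7.93% over all genes). In set 1 deficient replicate 1, 7 members lay below all 6 WT arrays (22.1% over all genes). Scgb3a2, a club cell secretoglobin, was at 11.14, 11.28 and 11.38 against 11.49, 11.58 and 11.14 (-0.14 ± 0.14, adjusted p = 0.89), with overlapping groups. The called gene was Gabrp, a GABA receptor subunit of airway epithelium, at 9.98, 9.93 and 10.01 against 10.99, 10.81 and 10.55 (-0.80 ± 0.22, adjusted p = 0.039), lost without deficient replicates 1 (-0.81), 2 (-0.78) or 3 (-0.82) or WT replicates 1 (-0.70) or 2 (-0.79). A2ml1, a protease inhibitor, was at 7.38, 6.91 and 7.05 against 9.95, 8.21 and 8.54 (-1.79 ± 0.27, adjusted p = 2.6e-04) and Pigr, which carries IgA and IgM across the epithelium, at 8.35, 8.49 and 8.66 against 10.90, 9.22 and 9.37 (-1.33 ± 0.37, adjusted p = 0.047, lost without deficient replicates 1 (-1.25), 2 (-1.32) or 3 (-1.41) or WT replicate 1 (-0.79)). Both were chosen after their values were seen, and in both WT replicate 1 was the highest array.

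The lowest genes of the comparison encode antibody chains and the chain that joins them. Jchain, which joins IgM and IgA into polymers and marks plasma cells, was at 5.03, 4.21 and 4.57 against 7.47, 10.03 and 10.30 (-4.67 ± 0.57, adjusted p = 2.1e-05), and the groups were far apart although WT replicate 1 lay well below the other WT arrays. Ighm, the heavy chain of IgM, was at 9.35, 9.89 and 9.85 against 11.31, 12.83 and 13.07 (-2.71 ± 0.42, adjusted p = 3.0e-04). Of 23 immunoglobulin genes taken by symbol after values were seen, 13 were lower, against 1.55% of all genes, and none higher (median -2.52). Without WT replicate 3 the count was 8, the lowest with 1 array left out. Variable segments are near-identical copies whose probe sets can share signal, so Igkv9-120 (-3.91 ± 0.46, adjusted p = 1.5e-05), Igkv4-72 (-3.70 ± 0.64, adjusted p = 8.4e-04) and the others are uncertain as single genes. The mean level of the 23 genes was 5.52 to 5.64 in the arrays labelled deficient, and 6.68, 8.22 and 9.14 in WT.

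Some genes of B cells before the plasma cell stage were called lower. Cr2, the complement receptor of B cells, was at 4.96, 5.28 and 5.18 against 6.01, 6.51 and 6.08 (-1.06 ± 0.23, adjusted p = 0.0067) and Fcer2a, the low-affinity IgE receptor, which is on no list and was chosen after its values were seen, at 6.02, 6.05 and 6.48 against 7.13, 7.93 and 7.54 (-1.35 ± 0.28, adjusted p = 0.0054). Bank1, a B cell scaffold protein chosen in the same way, was at 6.80, 7.02 and 7.16 against 7.72, 8.51 and 8.41 (-1.22 ± 0.26, adjusted p = 0.0055), and all 3 lost their call without WT replicate 2 alone (-0.90, -1.16 and -1.07). Cd79b, a chain of the B cell receptor, was at 6.84, 7.45 and 7.40 against 7.65, 8.18 and 8.03 (-0.73 ± 0.20, adjusted p = 0.041, lost without deficient replicates 1 (-0.53), 2 (-0.84) or 3 (-0.81) or WT replicates 2 (-0.62) or 3 (-0.69)). Of the 12 measured genes of the B and plasma cell list 3 were called lower, against 1.55% of all genes (median -0.70). The count was 1 to 4 with 1 array left out and 1 without WT replicate 2. In the arrays with low Zmpste24 against 6 WT arrays 8 of the 12 were lower. Ikzf3, a B lineage transcription factor chosen after its values were seen, was at 6.49, 6.79 and 6.65 against 7.12, 7.99 and 7.66 (-0.95 ± 0.20, adjusted p = 0.0059, lost without WT replicate 2 (-0.75)). Of 15 T and natural killer cell genes 3 were lower, against 1.55% of all genes. They were Ccl5 (-1.12 ± 0.27, adjusted p = 0.017), Lat (-0.65 ± 0.16, adjusted p = 0.022) and Nkg7 (-0.55 ± 0.14, adjusted p = 0.032), with none of them called without WT replicate 2 or deficient replicate 3. Stat4, which relays interleukin-12 signals and was also chosen after its values were seen, was at 6.43, 6.24 and 6.21 against 6.94, 7.43 and 7.61 (-1.03 ± 0.20, adjusted p = 0.0024).

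Antigen presentation was lower on both its arms, class I, which shows peptides from inside the cell, and class II, which shows peptides taken up by B cells, macrophages and dendritic cells. Of 14 measured genes 9 were lower, against 1.55% of all genes, and none higher (median -0.65). The count was 8 without WT replicate 1, 7 without deficient replicate 2 and 5 without each of the others. Nlrc5, the class I transactivator, was at 6.63, 6.68 and 6.66 against 7.48, 7.67 and 7.60 (-0.93 ± 0.19, adjusted p = 0.0043). H2-K1, a class I heavy chain, was at 9.54, 9.93 and 10.03 against 10.50, 10.58 and 10.72 (-0.77 ± 0.13, adjusted p = 7.2e-04), although related class I genes share sequence with it. Tap1, a subunit of the peptide transporter, was at 8.41, 8.49 and 8.37 against 9.15, 9.42 and 9.27 (-0.86 ± 0.18, adjusted p = 0.0062, lost without WT replicate 2 (-0.79)). On the class II side H2-Eb1 was at 8.48, 8.77 and 8.83 against 9.39, 9.44 and 9.98 (-0.91 ± 0.18, adjusted p = 0.004) and H2-Ab1 at 10.74, 11.03 and 11.14 against 11.61, 11.54 and 12.10 (-0.79 ± 0.18, adjusted p = 0.015, lost without deficient replicate 1 (-0.67) or WT replicate 3 (-0.61)). Ciita, the class II transactivator, was at 7.45, 7.82 and 7.62 against 8.17, 8.32 and 8.55 (-0.71 ± 0.17, adjusted p = 0.016, lost without deficient replicates 1 (-0.62) or 3 (-0.71) or WT replicates 2 (-0.73) or 3 (-0.61)). Of the 14 members 13 were lower without overlap between the groups, where 7.93% of all genes were. In the arrays with low Zmpste24 12 of the 14 were lower, and H2-Eb1 differed by -1.12 ± 0.16, adjusted p = 2.8e-04.

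Promoters of both classes carry a CCAAT box, the Y box bound by NF-Y, next to the site of the transactivator complex. Of the 14 genes 10 have a RefSeq promoter, and 9 of them hold CCAAT on either strand within 250 bases upstream, as do 38.7% of the measured genes with a promoter. Psmb9 differed by -0.68 (adjusted p = 0.027) and kept its call in only 1 of the fits with 1 array left out. In set 1 deficient replicate 1 it lay within the range of the young WT arrays. For H2-K1, the 100 bases upstream hold 1 CCAAT at the first annotated start and 2 at the second. The 100 bases upstream of H2-Eb1 (chr17:34305767-34305866 (plus strand)), of H2-K1 (chr17:34000334-34000433 (minus strand)) and of Psmb9, a subunit of the immunoproteasome (chr17:34187331-34187430 (minus strand)), are shown, H2-K1 from the second of its annotated starts, as the class II gene, the class I gene and the peptide-producing gene that were lower, with CCAAT or its reverse complement in capitals.
H2-Eb1: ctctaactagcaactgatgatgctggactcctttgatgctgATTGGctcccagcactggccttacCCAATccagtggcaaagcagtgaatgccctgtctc
H2-K1: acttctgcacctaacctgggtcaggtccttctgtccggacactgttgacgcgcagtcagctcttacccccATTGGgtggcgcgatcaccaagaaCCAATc
Psmb9: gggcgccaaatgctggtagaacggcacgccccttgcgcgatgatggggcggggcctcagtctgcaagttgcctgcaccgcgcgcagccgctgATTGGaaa

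Of 19 measured interferon-induced genes outside this pathway 2 were called lower and 1 higher (1.55% and 1.33% over all genes). The median difference was -0.29, and 16 of the 19 differences were below 0. The arrays did not overlap in 7 lower members (7.93% of all genes) and 1 higher member (12.6%), and in the 3 low-Zmpste24 arrays 4 were called lower and 1 higher. Oas2, which senses double-stranded RNA, was at 7.46, 7.72 and 7.68 against 8.93, 8.24 and 8.29 (-0.86 ± 0.21, adjusted p = 0.016, lost without deficient replicates 1 (-0.78) or 3 (-0.89) or WT replicate 1 (-0.64)). Igtp, a GTPase induced by interferon gamma, was at 6.90, 7.000 and 7.27 against 8.63, 7.36 and 8.31 (-1.04 ± 0.29, adjusted p = 0.046, lost without deficient replicates 1 (-0.96), 2 (-1.01) or 3 (-1.15) or WT replicates 1 (-0.78) or 3 (-0.94)). Rsad2, an antiviral enzyme, was higher, at 8.01, 7.41 and 7.29 against 7.06, 6.61 and 6.72 (0.77 ± 0.19, adjusted p = 0.023, lost without deficient replicate 1 (0.55) or WT replicates 2 (0.68) or 3 (0.74)). Gbp8, a guanylate-binding protein chosen after its values were seen, was at 5.83, 4.97 and 5.62 against 7.41, 6.96 and 7.08 (-1.68 ± 0.29, adjusted p = 0.001).

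**Figure D4:**
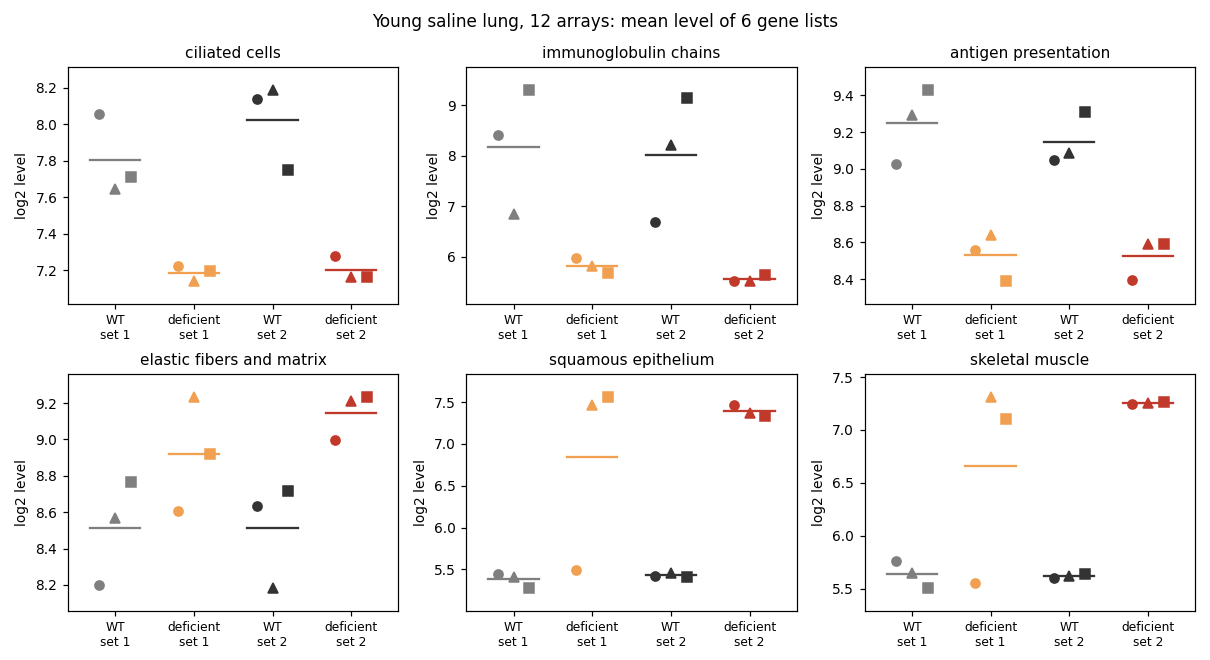
Mean log2 level of 6 gene lists in the 12 young saline arrays, with symbols as in the plot of marker genes. Ciliated cell, immunoglobulin and antigen presentation genes are low in all 6 arrays labelled deficient, including set 1 replicate 1, whereas that array lies near WT for squamous epithelium and skeletal muscle and within the WT range for elastic fiber and matrix genes.

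A minority of matrix genes was called higher, with elastin at the head. Eln, the core of elastic fibers, was at 10.96, 11.87 and 11.99 against 10.10, 8.71 and 9.49 (2.17 ± 0.38, adjusted p = 9.3e-04), with all arrays labelled deficient above all WT arrays and WT replicate 2 the lowest. Fn1, fibronectin, was at 11.83, 12.14 and 12.27 against 10.97, 9.94 and 10.93 (1.47 ± 0.36, adjusted p = 0.02, lost without deficient replicates 2 (1.44) or 3 (1.37) or WT replicate 2 (1.13)). Mfap4, a microfibril protein, was at 10.77, 10.91 and 11.07 against 10.03, 8.98 and 9.95 (1.26 ± 0.30, adjusted p = 0.018, lost without deficient replicates 2 (1.26) or 3 (1.18) or WT replicate 2 (0.92)), and Postn, periostin, at 10.53, 10.69 and 10.83 against 9.77, 9.21 and 10.03 (1.01 ± 0.25, adjusted p = 0.022, lost without deficient replicates 2 (1.01) or 3 (0.94) or WT replicate 2 (0.78)). Of 23 measured genes of elastic fibers and matrix glycoproteins 6 were called higher, against 1.33% of all genes, with a median difference of 0.56. Without deficient replicate 3 only 1 stayed called, and without deficient replicate 2 or WT replicate 2 only 2 did. WT replicate 2 was the lowest array in each of these 4 genes. Set 1 deficient replicate 1 lay above all 6 WT arrays in 7 of the 23 and below all 6 in 6 of them, where the shares over all genes were 19.2% and 22.1%, and its list mean of 8.61 was within the range of the 6 WT arrays (8.18 to 8.77). All 6 called members were among those above, with Eln at 10.41.

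Of 20 collagen genes 6 were higher, against 1.33% of all genes (median 0.67). The count was 3 without deficient replicate 1 or WT replicate 1, 2 without WT replicate 3 and 1 without each of the others. Col3a1 was at 10.02, 10.33 and 10.38 against 9.59, 8.62 and 8.91 (1.20 ± 0.28, adjusted p = 0.015, lost without deficient replicates 2 (1.16) or 3 (1.13) or WT replicates 2 (0.99) or 3 (1.14)). Col6a2, a chain of the beaded microfibril collagen, was at 9.34, 9.44 and 9.47 against 8.59, 7.98 and 8.50 (1.06 ± 0.18, adjusted p = 8.6e-04) and kept its call in every such fit. Col1a1, the main fibrillar collagen, was at 10.67, 10.90 and 10.86 against 9.93, 9.52 and 9.73 (1.08 ± 0.38, adjusted p = 0.17), without a call though the groups did not overlap. Col4a1 of basement membranes (0.85 ± 0.23, adjusted p = 0.038) lost its call whichever array was left out. In the comparison with low-Zmpste24 arrays 2 collagens were higher. In set 1 deficient replicate 1, with little attached tissue, the mean of the list was 7.87, within the range of the 6 WT arrays (7.70 to 7.95), and 4 collagens lay above and 5 below all 6. Col1a1 was at 9.59 there, against 9.41, 9.65 and 9.87 in the WT arrays of that set. Collagen and elastin are also made by muscle connective tissue and by the wall of the esophagus and trachea, and the part of attached tissue in these levels was not tested in set 2. Pcolce, which helps to cut procollagen, was the only called gene of 17 for collagen processing (0.81 ± 0.22, adjusted p = 0.038, lost without deficient replicates 2 (0.69) or 3 (0.83) or WT replicates 1 (0.87) or 2 (0.60)).

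Some fibroblast genes were higher too. Tcf21, a transcription factor of lung mesenchyme and lipofibroblasts, was at 10.36, 10.06 and 10.08 against 9.37, 8.64 and 9.14 (1.12 ± 0.20, adjusted p = 0.0014). Wnt2, a ligand of distal lung fibroblasts, was at 6.77, 6.91 and 6.89 against 6.23, 5.93 and 6.19 (0.74 ± 0.13, adjusted p = 0.0011), and Fgfr4 at 8.75, 8.55 and 8.57 against 7.99, 7.36 and 7.86 (0.88 ± 0.20, adjusted p = 0.012, lost without deficient replicate 1 (0.82) or WT replicate 2 (0.70)). Of 16 fibroblast and pericyte genes 5 were called higher, against 1.33% of all genes (median 0.58). All 5 lay above the 6 WT arrays in set 1 replicate 1. Without WT replicate 2 the count was 2, and without each array labelled deficient it was 3. Tcf21, at 9.96 in set 1 replicate 1, also differed in the low-Zmpste24 comparison (1.17 ± 0.18, adjusted p = 5.5e-04). Pdgfra, the receptor that marks these cells most broadly, was at 10.85, 10.83 and 10.93 against 10.53, 9.70 and 10.62 and was not called (adjusted p = 0.19). Among 20 genes of TGF-beta signalling only the ligand Tgfb2 was called, at 8.41, 8.72 and 8.89 against 7.86, 7.15 and 8.09 (0.97 ± 0.27, adjusted p = 0.045, lost without deficient replicates 1 (1.10), 2 (0.95) or 3 (0.86) or WT replicates 1 (1.05) or 2 (0.70)), and Tgfb1 was at 9.43, 9.50 and 9.50 against 9.10, 9.42 and 9.51 (0.13 ± 0.19, adjusted p = 0.94).

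Several genes with large differences lay outside the lists and were also high in set 1 replicate 1. Aspn (asporin), a small leucine-rich proteoglycan that binds collagen, was at 8.50, 8.72 and 8.87 against 7.13, 5.80 and 6.61 (2.18 ± 0.37, adjusted p = 6.4e-04) and at 8.999 in that array. Phex, a peptidase known for its role in phosphate balance, was at 7.59, 7.39 and 7.62 against 5.95, 5.06 and 6.005 (1.86 ± 0.23, adjusted p = 2.9e-05). Spink5, an inhibitor of skin proteases made in stratified epithelia, was at 8.14, 7.68 and 7.69 against 6.35, 5.87 and 6.10 (1.73 ± 0.19, adjusted p = 1.4e-05) and at 7.49 in the array with little squamous RNA. Stfa2l1, a cystatin relative found in myeloid cells, was at 7.14, 6.99 and 7.12 against 5.70, 4.98 and 5.55 (1.67 ± 0.29, adjusted p = 0.001) and at 8.40 there. All 4 kept their calls whichever array was left out. Spink5 was chosen after its values were seen, as were Rgs5, a pericyte gene (1.68 ± 0.28, adjusted p = 6.2e-04), Fras1, an extracellular protein of epithelial basement membranes (1.40 ± 0.22, adjusted p = 4.1e-04), and Snai2, a repressor of epithelial genes (1.22 ± 0.25, adjusted p = 0.0039).

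Imprinted genes, which are read from only the maternal or only the paternal chromosome, gave the call with the smallest p-value. Many of them are highly expressed in the fetus and fall silent after birth as growth slows. Peg3, a paternally expressed zinc finger gene, was at 8.88, 8.99 and 9.17 against 7.64, 7.34 and 7.43 (1.54 ± 0.15, adjusted p = 1.8e-06), and in set 1 at 8.52, 8.77 and 8.40 against 7.24, 7.31 and 7.20. The young saline arrays labelled deficient of both sets lay above all 15 WT arrays of the series, whose highest value was 7.64. The 9 arrays labelled deficient of the other groups ran from 7.58 to 9.17. Zim1, its maternally expressed neighbor, was at 6.01, 5.85 and 5.99 against 5.13, 4.78 and 5.14 (0.94 ± 0.15, adjusted p = 4.8e-04). Mest, a paternally expressed gene of the mesoderm, was at 8.31, 8.83 and 8.76 against 7.58, 6.95 and 7.14 (1.41 ± 0.28, adjusted p = 0.0031), and Grb10, an adaptor that restrains insulin signalling, at 8.87, 9.18 and 9.10 against 8.29, 7.92 and 8.09 (0.95 ± 0.18, adjusted p = 0.0018). These 4 genes kept their calls whichever array was left out. Of 28 measured genes of an imprinted list written after values were seen, 6 were higher, against 1.33% of all genes. None was lower, and the median was 0.21. The other calls were Rian and Nnat, and Nnat (0.49 ± 0.14, adjusted p = 0.049) lost its call whichever array was left out.

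The cluster between Dlk1 and Dio3 holds maternally expressed noncoding RNAs, with snoRNA and microRNA genes inside long host transcripts. RefSeq lists 103 genes in it, of which 55 were measured, 5 were called higher (1.33% over all genes) and none lower. Rian, the host RNA of the snoRNAs, was at 6.80, 6.50 and 6.44 against 5.77, 5.22 and 5.08 (1.22 ± 0.22, adjusted p = 0.0011). Of 6 measured snoRNA genes 3 were higher: AF357425 at 8.81, 8.27 and 8.56 against 7.23, 6.83 and 7.12 (1.48 ± 0.20, adjusted p = 5.7e-05), AF357355 at 6.64, 6.78 and 6.64 against 5.97, 5.77 and 4.72 (1.20 ± 0.27, adjusted p = 0.0096) and AF357426 at 4.55, 3.39 and 4.01 against 3.60, 2.92 and 2.60 (0.94 ± 0.25, adjusted p = 0.035). AF357425 stood clear of WT in every array, with set 1 at 9.14, 8.35 and 8.90. The calls of AF357355 and AF357426 were lost without deficient replicate 2 (1.15) or WT replicate 3 (0.82) and without deficient replicates 1 (0.66) or 3 (0.93) or WT replicates 2 (0.88) or 3 (0.72). Members of 1 host transcript are not independent of each other. Of 43 microRNA genes in the cluster 1 was called, Mir493 at 6.11, 5.34 and 5.69 against 4.87, 4.69 and 4.82 (0.92 ± 0.16, adjusted p = 9.2e-04).

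Across the 483 measured microRNA genes 2 were called, both higher, which is a smaller share than the 1.33% of all genes called higher. They are described as single genes and not as a result about microRNAs. The other, Mir218-1, was at 6.88, 6.66 and 6.71 against 6.29, 5.48 and 5.93 (0.85 ± 0.21, adjusted p = 0.024, lost without deficient replicates 1 (0.79), 2 (0.90) or 3 (0.87) or WT replicates 2 (0.64) or 3 (0.87)). It lies inside Slit2, the gene of a guidance ligand, which was at 9.09, 9.35 and 9.39 against 8.43, 7.25 and 8.46 (1.22 ± 0.29, adjusted p = 0.015, lost without deficient replicates 2 (1.19) or 3 (1.17) or WT replicate 2 (0.83)). The array reads hairpins and does not tell the arms apart, so the 5p arms are shown, with the seed (bases 2 to 8) in capitals, from RefSeq at chr12:109580243-109580261 (plus strand) and chr5:48223966-48223986 (plus strand). The seeds of the pair differ.
mmu-miR-493-5p: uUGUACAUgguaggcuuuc
mmu-miR-218-5p: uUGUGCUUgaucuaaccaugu

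**Figure D5:**
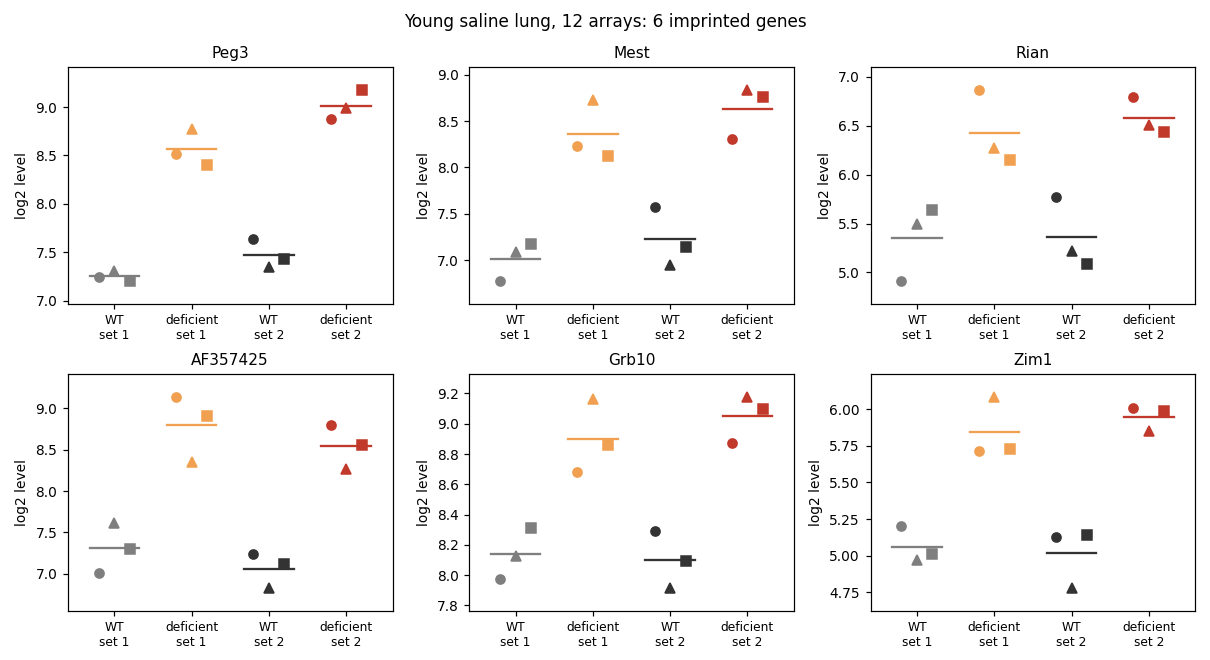
Log2 level of 6 imprinted genes or snoRNAs of imprinted clusters in the 12 young saline arrays, with symbols as in the plot of marker genes. In every panel the set 2 arrays labelled deficient lie above the set 2 WT arrays, and Peg3 separates all 6 arrays labelled deficient (8.40 to 9.17) from WT.

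The nuclear lamina genes themselves did not differ by a call. Among the 18 measured genes of lamins, their processing and their partners other than Zmpste24, differences ran from -0.31 to 0.35, and 1 had an unadjusted p under 0.05. Lmna, the source of prelamin A, was at 7.75, 7.71 and 7.66 against 7.63, 7.66 and 7.45 (0.13 ± 0.15, adjusted p = 0.91). Fntb, a subunit of the farnesyltransferase that acts on prelamin A, was at 6.49, 6.61 and 6.62 against 6.30, 6.16 and 6.23 (0.35 ± 0.15, adjusted p = 0.39), the highest difference of the list. Of 23 p53 target genes the call fell on Perp alone, at 8.72, 8.37 and 8.43 against 7.32, 7.05 and 7.21 (1.31 ± 0.23, adjusted p = 8.5e-04). Perp is also a desmosome gene of stratified epithelia, and in the array with little squamous RNA it was at 7.57, within the WT range. Cdkn1a, the cell cycle inhibitor that p53 induces, was at 9.35, 10.02 and 10.13 against 9.85, 8.80 and 9.66 (0.40 ± 0.39, adjusted p = 0.88), with overlapping groups. No call fell on the lists of senescence, autophagy, the IGF axis or the cell cycle, whose medians ran from -0.17 to 0.30.

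Alveolar and endothelial genes gave no call either. Ager, which marks alveolar type 1 cells, was at 12.55, 12.62 and 12.65 against 12.37, 11.92 and 12.39 (0.38 ± 0.15, adjusted p = 0.28). Sftpc, surfactant protein C of type 2 cells, was at 13.36, 13.40 and 13.40 against 13.33, 12.98 and 13.09 (0.25 ± 0.13, adjusted p = 0.49). The median difference was 0.07 over 15 type 1, 0.31 over 16 type 2 and 0.19 over 15 endothelial genes. A missed threshold does not show that these levels were equal. Of 21 measured genes taken by name from the text of the paper 4 were called, all of them higher (1.33% over all genes): Eln, Fn1, Col3a1 and Peg3. Tnc, tenascin C, was at 7.11, 7.77 and 7.69 against 6.37, 6.17 and 6.56 (1.16 ± 0.51, adjusted p = 0.37), Mmp12 at 6.12, 6.86 and 6.96 against 7.42, 5.95 and 7.20 (-0.22 ± 0.39, adjusted p = 0.95) and Timp1 at 6.19, 6.14 and 6.01 against 7.10, 5.79 and 6.06 (-0.20 ± 0.40, adjusted p = 0.96). None of the 17 metalloproteinase and inhibitor genes was called.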

How the data were processed

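Total RNA of saline-perfused lungs was measured on the Mouse Gene 2.0 ST array (Affymetrix), and the deposited log2 values were made by the authors by a summarization and normalization not given in the sources used here. These values were used as deposited: their array medians ran from 5.95 to 6.19, and no read depth exists, so precision rests on how many arrays a group holds. Of 41345 probe sets 23521 had 1 gene symbol, 1820 had several and 16004 had none. The probe set with the highest mean was kept for each of 22180 genes. Means of 10 groups were fitted over all 30 arrays with limma 3.58.1 in R 4.3.3, so that all groups share the estimate of spread, and p-values were adjusted by the Benjamini-Hochberg method over all genes. The methods describe the replicates as biological samples, and p-values measure the spread between these arrays. Zmpste24 read near WT in replicates 2 and 3 of the young deficient group, and its groups were kept as labelled.

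Attached-tissue lists were kept apart from the 37 lists of lung cells and processes. Members and lists were chosen with earlier results of these data known. Named genes were up to 4 called members per list by absolute difference, or else the member with the highest mean, the nuclear lamina genes, the 12 highest and 12 lowest called genes outside the attached-tissue lists whose arrays did not overlap, those also called with the 3 attached-tissue means as covariates, and the genes the paper names. Chosen after their values were seen were, in the report, A2ml1, AF357355, AF357426, Bank1, Cdkn1a, Cfap43, Ciita, Dnah9, Fcer2a, Foxj1, Fras1, Gbp8, Grb10, H2-K1, Hydin, Ikzf3, Lrrc6, Mest, Mir218-1, Mir493, Nnat, Pdgfra, Pigr, Psmb9, Rgs5, Rian, Rsph1, Scgb3a2, Slit2, Snai2, Spag17, Spink5, Stat4, Xist and Zim1, and all genes under the other observations. A further 41 called genes with provisional or receptor symbols were counted and not named. Alternatives changed probe sets, normalization, filter, variance model, arrays and covariates. In data simulated for this comparison, 13, 45, 48 and 50 of 50 genes changed by 0.5, 1, 2 and 3 (log2) were called. Of 21980 unchanged genes 10 were called. The simulated noise was normal and independent between genes and arrays, with 1 spread per gene for all groups. Attached-tissue genes that move together and arrays that differ from their group were not simulated, so these counts are no error rate of the real comparison.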

Additional observations from a re-analysis of the deposited data

How the results depend on the processing

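The 639 calls became 2191 with array weights (59.5% of them higher, against 46.2%), 1410 with 6 young deficient against 6 young WT arrays and set as a term, 377 in set 1, 308 at an adjusted p under 0.01 and 193 with a difference above 1 as well. They fell to 73 without both deficient replicates 2 and 3, to 4 with the squamous mean as a covariate and to 2 with the squamous, muscle and brown fat means. Leaving out 1 array gave 294 to 535, fewest without WT replicate 2. The 377 calls of set 1 became 935 with array weights, 44 with 6 arrays and 14 without replicates 2 and 3, and 122 to 418 with 1 array left out. Zmpste24 became called at -2.22 without deficient replicates 2 and 3, -1.63 with 6 against 6 arrays, -2.62 with the 3 low-Zmpste24 arrays and -2.16 in set 1, and ran from -0.54 to -1.47 with 1 array left out. In the 3 low-Zmpste24 arrays 36.9% of calls were higher.

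Among called genes named or chosen, leaving out members of the 3 lists that made the covariates, signs turned under the covariates alone: Defb4 -0.27 with the squamous mean and -0.17 with all 3 means, Lce3f -0.10 and -0.08, Lor -0.068 and -0.019, Lypd5 -0.58 and -0.53, Mt4 -0.26 and -0.25, and Col4a1 -0.025 with all 3. Of the members left out, Atp2a1 and Myh1 also turned, to -0.30 and -0.20 with all 3 means. The cause was not tested. Of the 141 called genes named or chosen, 11 lost their call under quantile normalization, 24 with the 6 arrays alone, 3 with trended and robust variance, 2 with the mean of probe sets and none on median centring. The replicate block gave 621 calls in set 2 and 357 in set 1, and 3 of the 141 lost their call. Same-numbered arrays did not deviate together (r = -0.081, 0.020 and 0.053), so the numbers do not pair the arrays. The 3 arrays a group limit what can be called, and 16615 genes had a mean of 5.2 or more.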

Other observations

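The genes below were picked one by one because they were called higher, from no list, so they say nothing about a pathway or family. Robo2, a receptor of Slit ligands, was at 8.77, 9.38 and 9.38 against 8.18, 7.53 and 8.43 in WT (1.13 ± 0.25, adjusted p = 0.0072). Epha3, an ephrin receptor, was at 7.54, 7.07 and 7.22 against 6.29, 5.66 and 6.38 (1.17 ± 0.20, adjusted p = 6.9e-04), and Unc5c, a netrin receptor, at 7.72, 7.88 and 7.69 against 7.03, 6.60 and 7.12 (0.84 ± 0.14, adjusted p = 7.5e-04). The groups did not overlap in these 3 genes. Neo1, also a netrin receptor, differed by 1.05 ± 0.27, adjusted p = 0.03 and Robo1 by 0.66 ± 0.17, adjusted p = 0.031. The call of Robo2 was lost without deficient replicates 2 (1.03) or 3 (1.03) or WT replicate 2 (0.87), that of Neo1 without deficient replicates 2 (1.03) or 3 (0.95) or WT replicate 2 (0.77) and that of Robo1 without deficient replicates 1 (0.60), 2 (0.69) or 3 (0.69) or WT replicates 1 (0.66) or 2 (0.56).

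Lamc1 and Lamb1, laminin chains of basement membranes, were picked in the same way, as were Adamts12 and Adamts17. Lamc1 was at 9.84, 9.96 and 9.93 against 9.01, 8.80 and 9.18 (0.92 ± 0.21, adjusted p = 0.012) and Lamb1 at 9.19, 9.38 and 9.28 against 8.57, 8.19 and 8.57 (0.84 ± 0.20, adjusted p = 0.015). Adamts12, a secreted metalloproteinase, was at 8.05, 8.43 and 8.50 against 7.15, 7.07 and 7.15 (1.21 ± 0.25, adjusted p = 0.0054) and Adamts17 at 8.23, 9.12 and 9.16 against 7.72, 7.20 and 7.39 (1.40 ± 0.29, adjusted p = 0.0041). The call of Lamc1 was lost without deficient replicates 2 (0.89) or 3 (0.90) or WT replicate 2 (0.82) and that of Lamb1 without deficient replicates 2 (0.79) or 3 (0.85) or WT replicate 2 (0.72). In set 1 deficient replicate 1 they were at 9.21, 8.73, 7.73 and 8.001.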
